A study of Mus musculus with 2 samples.

Results

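The collagen genes were measured on 2 two-colour Agilent arrays that compared mouse keratinocytes, the main cell type of the epidermis, of 2 labelled genotypes. The members were the gene probes whose name in the scanner files reads Col, a number, a and a number, without Col7a1 and Col17a1, the collagens of anchoring fibrils and hemidesmosomes. These were 77 probes of 38 genes among 41174 gene probes. They comprised 25 probes of 11 fibrillar genes, 13 probes of 6 basement membrane genes, 16 probes of 9 FACIT genes (fibril-associated collagens with interrupted triple helices) and 23 probes of 12 other collagen genes. RefSeq accessions of 58 member probes could be matched, and all 58 named the same gene as the files. A probe was tested where, on each of the arrays, Cy3 or Cy5 signal stood well above background, which held for 46 probes of 30 genes. The 8 genes with no tested probe were Col4a3, Col8a2, Col9a1, Col10a1, Col13a1, Col14a1, Col15a1 and Col28a1.

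On each array the wild-type keratinocyte RNA carried Cy3, and the RNA of keratinocytes labelled Chuk-deleted, titled CHUK-LoxP mutant, carried Cy5. The labels number the arrays as replicates 1 and 2. They name neither the Cre driver, the age of the mice nor whether the RNAs came from separate cultures. Per the file headers, the arrays share 1 slide barcode and 1 scan identifier. The p-values thus reflect the spread of a pair of arrays and perhaps technical spread alone. No array had the dyes swapped, so dye and genotype cannot be told apart at any probe. Chuk itself, which encodes the kinase IKKα, had intensities of 1392 and 1342 in the wild-type channel and 2304 and 2256 in the channel labelled Chuk-deleted at its brighter probe, and its log2 ratios were 0.73 and 0.75 there and 0.93 and 0.78 at the other probe. Chuk signal was thus higher where the label says it was deleted, and directions below follow the label. If the labels or dyes were exchanged, every ratio would change sign and keep its size, with 23 collagen genes lower and 1 higher. Where these probes lie relative to the floxed part is not given in the sources used here. The median spot intensity was between 95.2 and 109.9 in Cy3 and between 171.5 and 218 in Cy5, over local backgrounds of 41 to 42 and 72 to 74. Between 53.2% and 64.5% of gene spots were well above background, and no collagen spot was saturated. The keratinocyte markers Krt5, Krt14 and Trp63 were well above background in both channels.

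Collagens are secreted proteins of chains wound into a triple helix, and each gene of the family encodes a single chain that must find its partner chains in the endoplasmic reticulum. Fibrillar collagens build the rope-like fibrils of the dermis, type IV collagens form the sheet of the basement membrane on which basal keratinocytes sit, and FACIT collagens decorate fibril surfaces. In skin most fibrillar collagen is made by dermal fibroblasts, while keratinocytes in culture are known to make type IV collagen and some other chains.

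In the channel labelled Chuk-deleted, most measured collagen genes gave higher signal. Values are log2 ratios of that channel over wild type as mean ± SD of the arrays (n = 2), and a gene is represented by its brightest tested probe. Of the 30 tested genes, 23 were higher and 1 was lower at an adjusted p under 0.05 (limma, Benjamini-Hochberg over all 23519 tested probes), against 33% of all 13739 genes called higher and 28.3% called lower. The remaining 6 genes were Col4a4, Col4a5, Col8a1, Col9a2, Col11a1 and Col20a1. The median over the collagen genes was 0.58, with 0.55 on array 1 and 0.56 on array 2, while the median of all genes was 0.02. This direction depends on the centring of the arrays: lowering each array by the ratio of its spike-in controls moved the median of all genes to -0.74 and that of the collagens to -0.18, with 6 collagen genes higher and 14 lower where 2.05% and 91.0% of all genes were. The collagen median lay 0.56 above that of all genes, a distance that subtracting a single number per array cannot change, and all directions below are relative to the bulk of the genes. In this bulk RNA, fewer cells of a type and less RNA per cell cannot be told apart.

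Called genes were also found among brighter spots. Of the 30 representing probes, 25 were above background in both channels on both arrays, and of these 19 were higher and 0 were lower (limma), against 32.9% and 28.9% of all genes with such probes. The representing probes of the other 5 genes, Col9a3, Col19a1, Col22a1, Col24a1 and Col27a1, were above background in a channel on 1 array only and passed through the other channel, so a difference was built into their selection. Col27a1 had a second probe above background in both channels, at 0.31 ± 0.01 (adjusted p = 0.00254, limma). By size, 12 collagen genes were at least 1.5-fold higher on both arrays and 0 were 1.5-fold lower, where 5.76% and 6.81% of all genes were. At 2-fold on both arrays the counts were 2 higher, Col4a1 and Col5a3, and 0 lower, with 1.5% and 3.2% for all genes. The ratio was larger on array 2 than on array 1 for 22 of the 30 genes. The share of all genes with this order was not counted, and their median was 0.014 on array 1 and 0.029 on array 2.

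**Figure D1:**
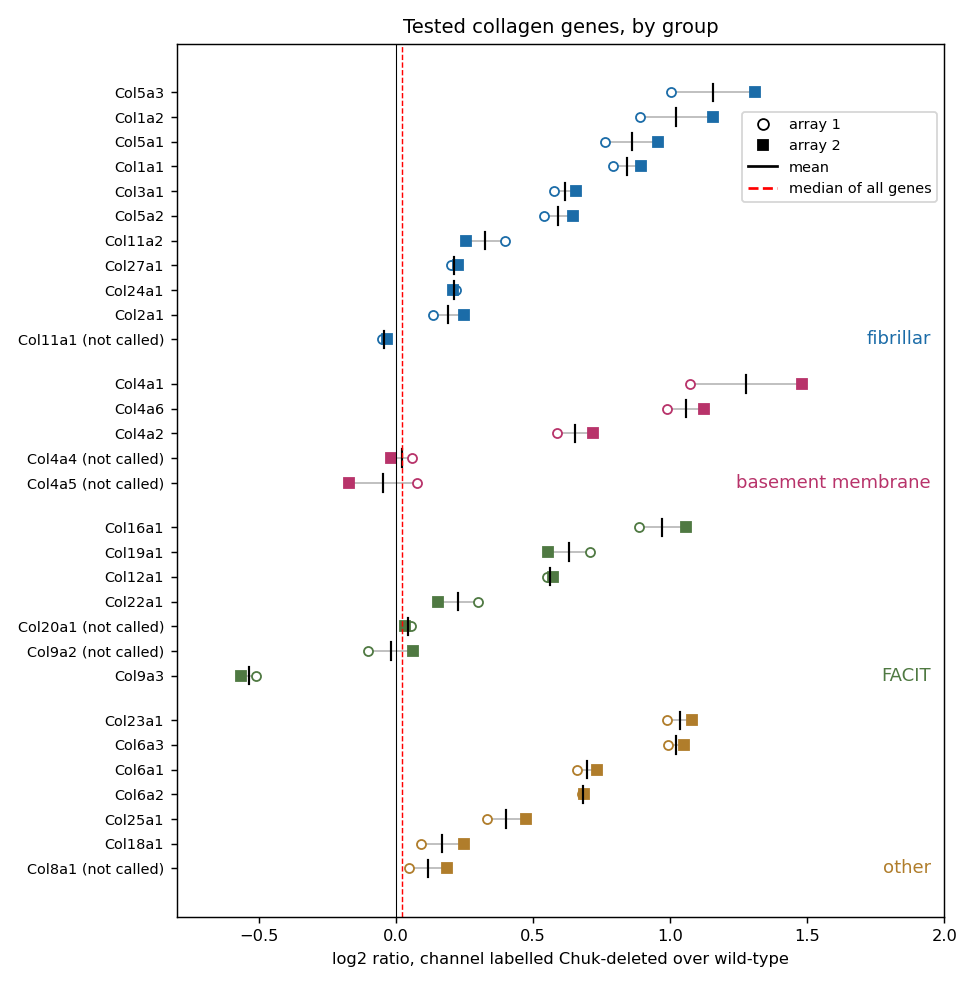
Log2 ratio of the channel labelled Chuk-deleted over wild type (horizontal axis) for the 30 tested collagen genes, with open circles for array 1, filled squares for array 2, a vertical tick for the mean and a dashed line at the median of all genes, 0.02. The points of 23 called genes lie right of 0 on both arrays and those of Col9a3 lie left of it, a placement that holds relative to the bulk of the genes and moves left when arrays are lowered by their spike-ins (collagen median -0.18).

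Fibrillar collagens formed the largest group, and 10 of their 11 genes were higher, 0 lower, against 33% and 28.3% of all genes. Their median was 0.59 and turned to -0.17 after spike-in lowering. The genes of type I collagen, the main fibre of the dermis built from both products, were high in both channels. Col1a1 had intensities of 14993 and 12112 in the wild-type channel and 25931 and 22512 in the channel labelled Chuk-deleted on arrays 1 and 2. The channels did not overlap, and the ratio was 0.84 ± 0.07, a 1.79-fold difference (adjusted p = 8.01e-05, limma). The probe was printed in 10 spots per array, whose log2 ratios had an SD of 0.013 on array 1 and 0.031 on array 2, below the difference between the arrays' ratios of 0.79 and 0.89. Col1a2 had 8438 and 7455 in the wild-type channel against 15617 and 16598, again without overlap. Its ratio was 1.02 ± 0.19, or 2.03-fold (adjusted p = 0.000108, limma).

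The genes of type V collagen, which sits inside type I fibrils and limits their thickness, were also higher. Col5a3 had the largest ratio of the fibrillar genes. Its intensities were 2751 and 3015 in the wild-type channel and 5514 and 7477 in the channel labelled Chuk-deleted, a ratio of 1.16 ± 0.22 or 2.23-fold (adjusted p = 9.44e-05, limma). Col5a1 rose from 7699 to 13063 on array 1 and from 9360 to 18149 on array 2. The channels did not overlap, and the ratio was 0.86 ± 0.14, or 1.81-fold (adjusted p = 0.000119, limma). Col5a2 was higher by 0.59 ± 0.07, and Col3a1, the chain of type III collagen found with type I in skin, by 0.62 ± 0.06.

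The other fibrillar genes gave smaller values on the loess scale. Col11a2 was higher by 0.33 ± 0.10, Col24a1 and Col27a1 by 0.21 each, and Col11a1 was not called at -0.04 ± 0.01. The sizes at these dim probes are uncertain. With the scanner software's ratio Col24a1 was at 0.92, Col11a2 at 0.56 and Col27a1 at 0.41, against 0.85 for Col1a1 and 0.64 for Col3a1. Col2a1, the main cartilage collagen, gave unequal values at its tested probes. Its brightest probe had a ratio of 0.19 ± 0.08 (adjusted p = 0.0253, limma), a call lost with the scanner software's own ratio (adjusted p = 0.0891). Its other tested probe, printed in 10 spots, had 0.72 ± 0.11 with intensities of 299 and 361 against 466 and 626. The markers of chondrocytes, the cells of cartilage, were mostly not above background. Of 7 markers 2 were tested, and Sox9 (-1.27 ± 0.003) and Acan (-0.22 ± 0.04) were lower, Acan with the channel labelled Chuk-deleted above background on 1 array only. The summed intensity of the tested markers was 13741 and 17383 in the wild-type channel and 5743 and 7244 in the channel labelled Chuk-deleted. Nearly all of it was Sox9, with 13640 and 17261 against 5658 and 7137, so the sum describes Sox9 rather than the list.

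Of the 6 basement membrane genes 5 were tested, 3 were higher and 0 lower, against 33% and 28.3% of all genes. Their median was 0.65 (-0.11 after spike-in lowering). Col4a1 and Col4a2 encode the chains of the type IV network present in nearly all basement membranes. Col4a1 had the largest ratio of all collagens, with intensities of 6644 and 4546 in the wild-type channel and 13961 and 12676 in the channel labelled Chuk-deleted. The ratio was 1.28 ± 0.29, or 2.42-fold (adjusted p = 0.000123, limma), and the second probe had 0.91 ± 0.16. Col4a2 went from 6440 to 9662 and from 5742 to 9440, which is 0.65 ± 0.09 or 1.57-fold (adjusted p = 0.000213, limma), with 0.54 ± 0.05 at its second probe. Both probes of each gene were thus higher on both arrays. After spike-in lowering, which moves all probes alike, Col4a2 was at -0.11 and -0.21 at its probes. Col4a1 was at 0.52 and 0.15 there, and its second probe was no longer called (adjusted p = 0.209, limma).

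The minor type IV chains differed from each other. Col4a6, whose chain joins that of Col4a5 in the basement membrane of the epidermis, had 198 and 184 in the wild-type channel and 393 and 401 in the channel labelled Chuk-deleted. That is a ratio of 1.06 ± 0.10, or 2.08-fold (adjusted p = 4.93e-05, limma). Its second tested probe was less even, with 0.61 on array 1 and 0.10 on array 2 (mean 0.36 ± 0.37, adjusted p = 0.0361, limma). That probe had passed through the channel labelled Chuk-deleted, the wild-type channel being above background on 1 array only, so a difference was built into its selection. Col4a5 had 216 and 259 against 228 and 229, so its channels overlapped, and the ratio of -0.05 ± 0.18 did not pass the test (adjusted p = 0.575, limma). Col4a4, a chain known from the kidney, had 0.02 ± 0.05 (adjusted p = 0.758, limma), and the 3 probes of its partner Col4a3 were not well above background in either channel.

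**Figure D2:**
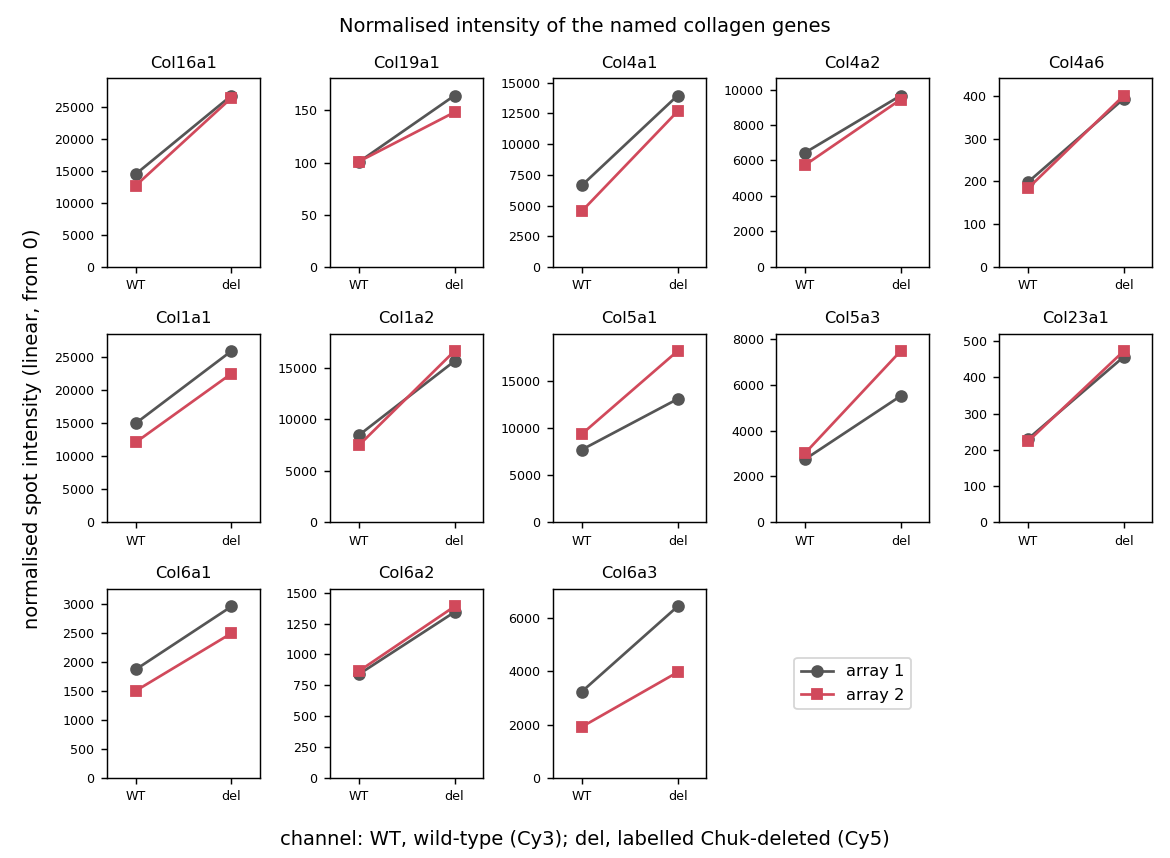
Normalised spot intensity (vertical axes, linear, from 0, each panel with its own scale) in the wild-type channel (WT, Cy3) and the channel labelled Chuk-deleted (del, Cy5) for 13 collagen genes, the 12 that were at least 1.5-fold higher on both arrays and Col19a1, with circles for array 1 and squares for array 2. The lines rise because the genes were chosen for it, and a reader should see how near the arrays lie to each other and the sizes, from means of 0.63 and 0.65 for Col19a1 and Col4a2 to 1.28 for Col4a1, on the loess scale that centres all genes near 0.

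The type IV genes lie in pairs that are read away from each other. In the RefSeq annotation (GRCm38.p6) the outermost starts of Col4a1 and Col4a2 lie 84 bases apart, and those of Col4a6 and Col4a5 lie 1275 bases apart. The genes of the first pair were both higher, by 1.28 and 0.65, and those of the second pair lay at 1.06 and -0.05. The 200 bases before the starts of the second pair are printed here because these neighbours differed in value, and those of Col1a2, Col5a3 and Col16a1 because these were among the genes with the largest ratios in their groups. Each reads 5′ to 3′ on the gene's strand, from RefSeq on GRCm38.p6, with matches to the searched motifs in capitals.
Col4a6, chrX:141474096-141474295, minus strand: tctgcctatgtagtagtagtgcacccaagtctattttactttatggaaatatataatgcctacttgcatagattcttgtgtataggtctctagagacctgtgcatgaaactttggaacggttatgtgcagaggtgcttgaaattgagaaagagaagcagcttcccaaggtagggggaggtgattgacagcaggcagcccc
Col4a5, chrX:141475170-141475369, plus strand: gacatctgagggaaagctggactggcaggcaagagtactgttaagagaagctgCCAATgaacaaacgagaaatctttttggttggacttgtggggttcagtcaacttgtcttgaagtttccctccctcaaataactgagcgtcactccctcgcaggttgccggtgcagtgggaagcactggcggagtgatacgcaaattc
Col1a2, chr6:4505418-4505617, plus strand: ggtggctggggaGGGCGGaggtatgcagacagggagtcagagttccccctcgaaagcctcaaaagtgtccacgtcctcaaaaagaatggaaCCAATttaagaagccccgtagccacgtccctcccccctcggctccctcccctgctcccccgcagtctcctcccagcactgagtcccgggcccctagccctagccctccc
Col5a3, chr9:20815118-20815317, minus strand: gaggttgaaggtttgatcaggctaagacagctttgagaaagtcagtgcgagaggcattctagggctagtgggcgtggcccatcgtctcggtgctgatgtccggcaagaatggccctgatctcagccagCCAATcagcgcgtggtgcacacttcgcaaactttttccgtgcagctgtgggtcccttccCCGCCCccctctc
Col16a1, chr4:130047617-130047816, plus strand: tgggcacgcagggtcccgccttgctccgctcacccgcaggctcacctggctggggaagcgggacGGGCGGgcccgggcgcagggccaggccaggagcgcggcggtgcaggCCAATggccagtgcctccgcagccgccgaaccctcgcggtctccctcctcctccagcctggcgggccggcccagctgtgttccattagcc

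A window of this kind was at hand for 18 of the 38 collagen genes, 12 of them called higher. The windows were searched on both strands for CCAAT (the CAAT box), for GGGCGG (the GC box), for TATAAA (the TATA box) and for TGACTCA (the AP-1 motif). CCAAT was in 5 of the 18 windows and in 4 of the 12, against 30.4% of all 21982 promoter windows. GGGCGG was in 10 of the 18 and 7 of the 12, against 27.4%. TATAAA was in 2 of the 18, Col3a1 and Col10a1, against 11.6%, and TGACTCA in 1, Col6a1, against 3.81%. Col1a2, Col5a3 and Col16a1 held both the CAAT box and the GC box, in Col5a3 the latter on the opposite strand. Col4a5, which was not called, held the CAAT box, and Col4a6 held none of the motifs. A match describes letters in these windows only.

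Among FACIT collagens, 7 of 9 genes were tested, of which 4 were higher and 1 lower, against 33% and 28.3% of all genes. Their median of 0.23 lay closest to that of all genes. It turned to -0.53 after spike-in lowering, and with median centring it lay 0.10 below the median of all genes. Col16a1, a FACIT chain that keratinocytes and fibroblasts are known to make, had intensities of 14550 and 12744 in the wild-type channel and 26864 and 26497 in the channel labelled Chuk-deleted. The channels did not overlap, and the ratio was 0.97 ± 0.12, or 1.96-fold (adjusted p = 7.3e-05, limma). Col19a1, found near basement membranes, had 100.6 and 100.9 against 164 and 148, a ratio of 0.63 ± 0.11 or 1.55-fold (adjusted p = 0.00027, limma), with the wild-type channel above background on 1 array only. Its size is uncertain as well, at 1.23 without the offset and 1.99 with the scanner software's ratio. Col12a1, which binds type I fibrils, was higher by 0.56 ± 0.01 at its brightest probe and by 0.24 ± 0.18 at the second.

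The single collagen gene called lower was Col9a3, a chain of cartilage type IX collagen. Its intensities were 128 and 134 in the wild-type channel and 90.0 and 90.4 in the channel labelled Chuk-deleted, which was above background on 1 array. The ratio was -0.54 ± 0.04, or 1.45-fold lower (adjusted p = 0.000299, limma). Its size is uncertain, since it was -1.05 without the offset and -1.54 with the scanner software's ratio. Its partner Col9a2 had -0.02 ± 0.11 (adjusted p = 0.792, limma) and Col9a1 was not tested. Col22a1 was higher by 0.23 ± 0.10, and Col20a1 was not called at 0.04 ± 0.02.

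Of the 12 other collagen genes 7 were tested, 6 were higher and 0 lower, against 33% and 28.3% of all genes. Their median was 0.68 (-0.08 after spike-in lowering). The type VI genes, whose chains assemble into beaded filaments around cells, were all higher on the loess scale, and only Col6a3 was called higher after spike-in lowering. Col6a3 had 3242 and 1917 in the wild-type channel and 6442 and 3969 in the channel labelled Chuk-deleted. The channels did not overlap, and the ratio was 1.02 ± 0.04, or 2.03-fold (adjusted p = 4.34e-05, limma). Col6a1 had 1872 and 1503 against 2961 and 2498, a ratio of 0.70 ± 0.05 or 1.62-fold (adjusted p = 0.000127, limma). Col6a2 had 840 and 865 against 1344 and 1390, a ratio of 0.68 ± 0.004 or 1.60-fold (adjusted p = 0.000121, limma), and 0.54 ± 0.07 at its second probe. The 3 chains of the type VI molecule thus lay between 0.68 and 1.02 at their brightest probes.

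Col23a1, a collagen anchored in the cell membrane, had 230 and 224 in the wild-type channel and 457 and 473 in the channel labelled Chuk-deleted. The ratio was 1.03 ± 0.07, or 2.05-fold (adjusted p = 4.51e-05, limma), with 0.83 ± 0.13 at the second probe. Col25a1, another membrane collagen, was higher by 0.40 ± 0.10 and 0.21 ± 0.01 at its tested probes. The second of these had passed through the channel labelled Chuk-deleted, the wild-type channel being above background on 1 array only. Col18a1, the basement membrane collagen that carries endostatin, was higher by 0.17 ± 0.11 and 0.19 ± 0.003 (adjusted p = 0.0487 and 0.0177, limma). Both Col18a1 calls were lost with the scanner software's own ratio (adjusted p = 0.499 and 0.171). The network-forming Col8a1 had 0.12 ± 0.10 and -0.06 ± 0.08 and was not called at either probe.

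Different probes of a gene mostly had the same call but differed in size. Among the collagen probes 35 were called higher and 1 lower, against 33.5% and 28% of all tested probes. The probe called lower was the only probe of Col9a3, so with these calls no gene could have probes called in opposite directions. Of the 16 genes with several tested probes, 13 had the same call at each. Among these, the dimmer probes of Col4a6 and Col25a1 had passed the filter through the channel labelled Chuk-deleted. The 3 others were Col5a3, Col11a2 and Col24a1, in which the dimmer probe was not called. The difference in size was large for Col5a1, with 0.86 at the brightest probe and 0.29 ± 0.06 at a probe with intensities between 129 and 189. For Col5a3 it was 1.16 against 0.13 ± 0.13, the latter at intensities between 87.8 and 102. The offset of 50 that was added to both channels draws the ratios of such dim spots towards 0. Without the offset the second probe of Col5a3 was at 0.30 against 1.16 and that of Col5a1 at 0.44 against 0.85. With the scanner software's ratio these values were 0.91 against 1.19 and 0.58 against 0.88. The second Col5a3 probe was called there (adjusted p = 0.0467, limma). In 14 genes a tested probe stood beside at least 1 probe that was not above background on both arrays, so the values describe the probe as well as the gene.

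**Figure D3:**
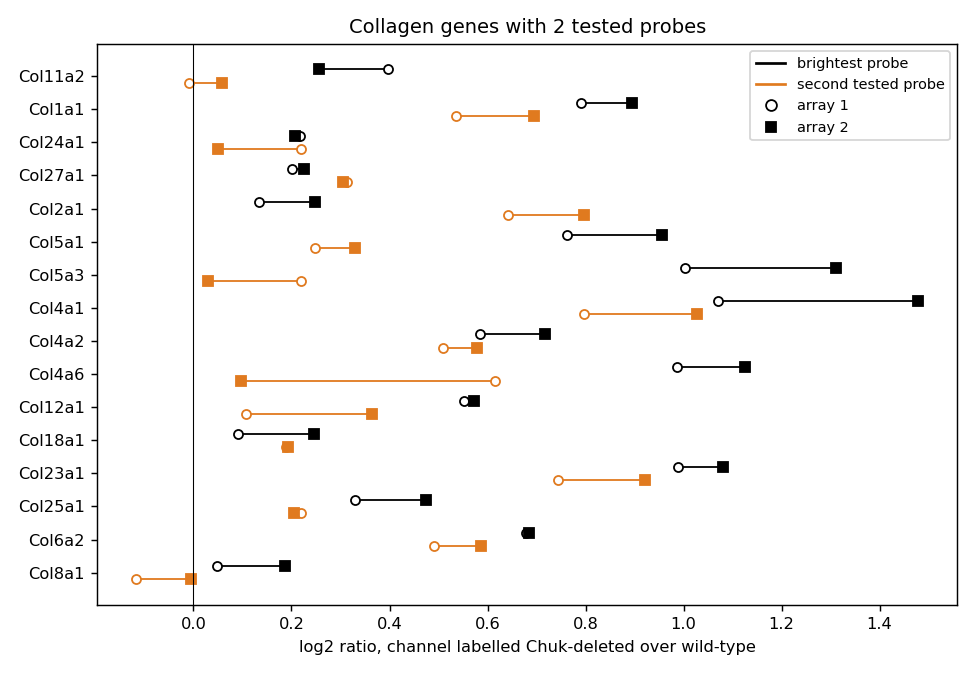
Log2 ratio of the channel labelled Chuk-deleted over wild type (horizontal axis) at the brightest probe (black) and the second tested probe (orange) of the 16 collagen genes with 2 tested probes, with open circles for array 1 and filled squares for array 2. Most orange points lie left of the black ones, as for Col5a3 (0.13 against 1.16). Col2a1 (0.72 against 0.19), Col27a1 (0.31 against 0.21) and, by its mean, Col18a1 (0.19 against 0.17) show the reverse.

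Genes that make, cut, bind or sit beside collagens were read from lists of general knowledge. Among 20 genes of collagen folding and modification, 18 were tested, 14 were higher and 1 lower, against 33% and 28.3% of all genes. Their median was 0.46. After spike-in lowering 0 were higher and 10 lower, with a median of -0.29, and with median centring 17 were higher and 0 lower (limma). Of all genes, 2.05% were higher and 91.0% lower after spike-in lowering, and 74.8% and 7.19% with median centring. P4ha1, a subunit of the prolyl hydroxylase that stabilises the helix, had 1048 and 1411 in the wild-type channel and 1785 and 2792 in the channel labelled Chuk-deleted, a ratio of 0.88 ± 0.15. The collagen chaperone Serpinh1 (0.80 ± 0.09), the prolyl 3-hydroxylase P3h2 (0.71 ± 0.05) and the lysyl hydroxylase Plod3 (0.69 ± 0.14) were higher as well. The gene called lower was the lysyl hydroxylase Plod2, at -0.20 ± 0.05, a call lost with median centring.

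Of 13 genes of procollagen processing and crosslinking, 10 were tested, 9 were higher and 0 lower, against 33% and 28.3% of all genes. Their median was 0.69 (-0.07 after spike-in lowering). After spike-in lowering 2 were higher and 3 lower (limma), where 2.05% and 91.0% of all genes were. Bmp1, the protease that removes the C-terminal propeptide, had 3673 and 3570 in the wild-type channel and 8218 and 10218 in the channel labelled Chuk-deleted. The channels did not overlap, and the ratio was 1.34 ± 0.25, or 2.53-fold (adjusted p = 7.99e-05, limma). Adamts2, which removes the N-terminal propeptide, was higher by 1.33 ± 0.13. The crosslinking lysyl oxidase Loxl2 was higher by 0.96 ± 0.08, and Tll1, a relative of Bmp1, by 0.95 ± 0.05.

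Of 11 collagen turnover genes 10 were tested, 7 were higher and 1 lower, against 33% and 28.3% of all genes. Their median was 0.29. After spike-in lowering the median was -0.47, and 0 were higher and 9 lower (limma), where 2.05% and 91.0% of all genes were. The lower member was the collagenase Mmp8, which had 375 and 319 in the wild-type channel and 157 and 113 in the channel labelled Chuk-deleted. Its ratio was -1.37 ± 0.17, or 2.59-fold lower (adjusted p = 4.2e-05, limma). Ctsk, a collagen-cutting cathepsin, was higher by 0.77 ± 0.14, Mmp1a by 0.41 ± 0.03 and Mmp16 by 0.38 ± 0.01.

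Of 10 collagen receptor genes 7 were tested, 6 were higher and 1 lower, against 33% and 28.3% of all genes. Their median was 0.53 (-0.23 after spike-in lowering). Adgrg6, an adhesion receptor that binds type IV collagen, was higher by 1.12 ± 0.05. The integrin subunit genes Itga11 (1.08 ± 0.13) and Itga1 (0.64 ± 0.04) were higher too. The lower member was Ddr1, the collagen receptor kinase of epithelial cells, with 60894 and 53721 in the wild-type channel and 34371 and 27469 in the channel labelled Chuk-deleted, a ratio of -0.90 ± 0.10. Ddr2, the related kinase known from mesenchymal cells, was higher by 0.53 ± 0.05. These relatives lay on opposite sides of 0 on the loess scale, and Ddr2 was at -0.23 after spike-in lowering. With median centring 6 receptor genes were called higher and 0 lower (limma), where 74.8% and 7.19% of all genes were. With the scanner software's ratio 6 were called higher and 1 lower.

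Genes of other basement membrane components moved in the direction of the type IV genes. Of 14 listed, 10 were tested, 8 were higher and 1 lower, against 33% and 28.3% of all genes. Their median was 0.44 (-0.32 after spike-in lowering). Fras1, among the higher, had passed through the channel labelled Chuk-deleted, the wild-type channel being above background on 1 array only. Where both channels had to be above background 7 were higher and 1 lower (limma), where 33.3% and 29.2% of all genes were. The proteoglycan gene Agrn had 48409 and 41484 in the wild-type channel and 114654 and 139115 in the channel labelled Chuk-deleted, a ratio of 1.49 ± 0.35. The laminin genes Lamb1 (0.75 ± 0.18) and Lamc1 (0.60 ± 0.03) were higher, and Tinagl1, a laminin-binding matrix gene, was lower at -0.61 ± 0.15.

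**Figure D4:**
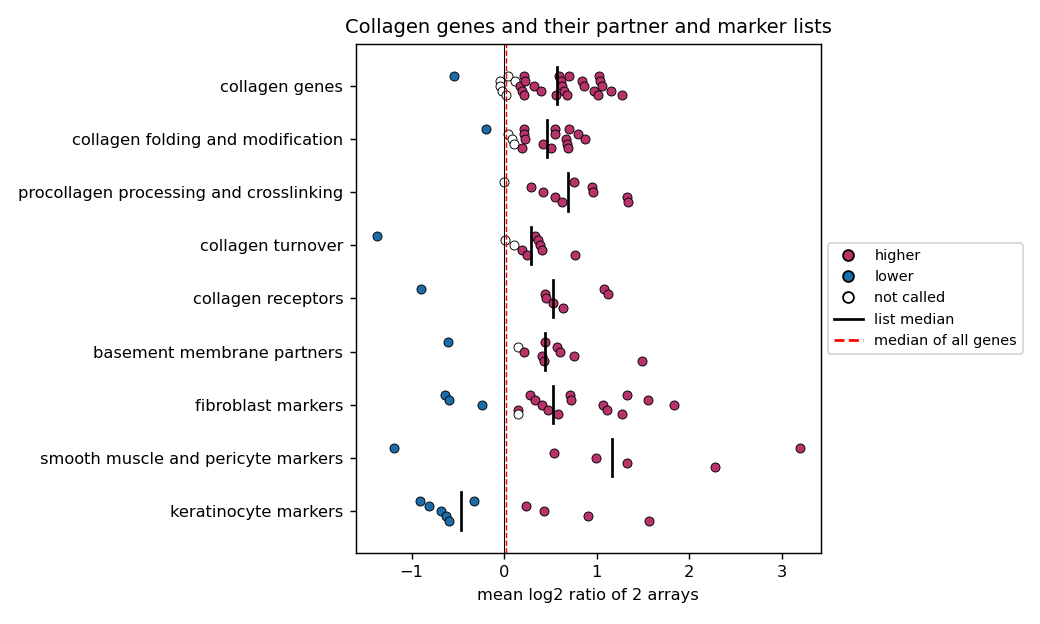
Mean log2 ratio of the 2 arrays (horizontal axis) for each tested gene of the collagen family, of 5 lists of collagen partners and of 3 marker lists, coloured by call (limma), with a black bar at each list's median and a dashed line at the median of all genes, 0.02. Medians of the partner lists lie between 0.29 and 0.69 and that of the keratinocyte markers at -0.46; after spike-in lowering the partner medians are negative, and with median centring the keratinocyte median is 0.27.

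Markers of other cell types were read beside the family. Of 20 fibroblast markers 18 were tested, 14 were higher and 3 lower, against 33% and 28.3% of all genes. Their median was 0.53. After spike-in lowering the median was -0.23, and 6 were higher and 9 lower, where 2.05% and 91.0% of all genes were. With median centring 15 were higher and 0 lower (limma), where 74.8% and 7.19% of all genes were. The summed intensity of the tested markers was 262964 and 244319 in the wild-type channel and 549325 and 608300 in the channel labelled Chuk-deleted. Fbln2 (1.84 ± 0.38), Sparc (1.55 ± 0.43), S100a4 (1.33 ± 0.11) and Fbn1 (1.27 ± 0.26) had the largest ratios. The defining markers were all well above background in both channels and did not move together: Thy1 was higher by 1.11 ± 0.21, Pdgfra by 0.41 ± 0.0003 and Dpt by 0.28 ± 0.01, Lum was not called at 0.15 ± 0.11, and Dcn was lower at -0.60 ± 0.03. The part of fibroblast RNA in the collagen values was not tested.

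Of 8 smooth muscle and pericyte markers 6 were tested, 5 were higher and 1 lower, against 33% and 28.3% of all genes. Their median was 1.16 (0.40 after spike-in lowering). Myh11, among the higher, had passed through the channel labelled Chuk-deleted, the wild-type channel being above background on 1 array only. Where both channels had to be above background 4 were higher and 1 lower (limma), where 33.3% and 29.2% of all genes were. The summed intensity of the tested markers was 42046 and 42621 in the wild-type channel and 111493 and 144653 in the channel labelled Chuk-deleted. Most of this sum came from Acta2 and from Tagln, which had 22771 and 27757 against 43775 and 57528. The largest ratios were those of Cnn1 (3.20 ± 0.40) and Acta2 (2.28 ± 0.66), while Notch3 was lower at -1.19 ± 0.14. Of the 10 keratinocyte markers 4 were higher and 6 lower, against 33% and 28.3% of all genes. Their median was -0.46. With median centring the median was 0.27, and 6 were higher and 0 lower (limma), where 74.8% and 7.19% of all genes were. After spike-in lowering 1 was higher and 8 were lower, where 2.05% and 91.0% of all genes were. The defining markers Krt14 (0.43 ± 0.07, saturated on 1 array) and Krt5 (0.23 ± 0.10) were higher on the loess scale. Itgb4 (1.57 ± 0.39) and Trp63 (0.90 ± 0.13) were higher, and the desmosomal genes Dsp (-0.91 ± 0.06) and Pkp1 (-0.81 ± 0.09) lower. The summed intensity of the 10 markers was 778285 and 804736 against 935837 and 948105. Most of it came from the brightest markers, Krt14, Krt5, Itgb4 and Perp, so the sum describes these rather than the list. The part of these cell types in the collagen values was not tested.

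Markers of the other cell types were dim or mostly lower. On the loess scale 33% of all genes were called higher and 28.3% lower. Of the endothelial markers 2 of 8 were tested, Kdr at 0.21 ± 0.02 and Vwf at -0.43 ± 0.04, while Pecam1 and Cdh5 were not. Vwf had passed through the wild-type channel, the other channel being above background on 1 array. The summed intensity of Kdr and Vwf was 1134 and 1146 against 1254 and 1277. The 6 tested of 7 melanocyte markers were all lower on the loess scale, with a median of -1.16. Of 4 tested among 7 macrophage markers 3 were lower and 0 higher, with a median of -0.91, which was -0.45 where both channels had to be above background and -0.048 without a filter. Adgre1 and Csf1r among them had passed through the wild-type channel, the other channel being above background on 1 array. Of 5 Schwann cell markers 4 were tested, 1 was higher and 2 lower, with a median of -0.10 (0.41 with median centring).

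The position of the collagen groups relative to all genes was compared across processing settings. The collagen median lay above the all-gene median by between 0.49 and 0.68 in all settings with a filter on dim probes, and by 0.22 without a filter, which adds the 8 untested genes. The fibrillar distance was between 0.55 and 0.69 in all settings shown in the plot of group medians. The FACIT distance was the least even, from -0.10 with median centring to 0.58 with the scanner software's ratio.

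**Figure D5:**
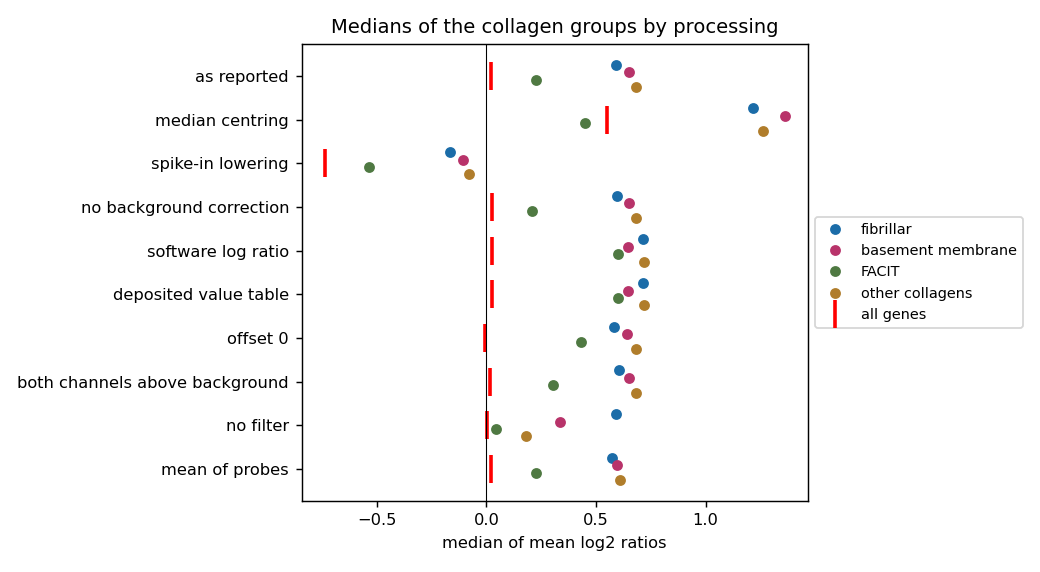
Median of the mean log2 ratios (horizontal axis) of the 4 collagen groups (coloured points) and of all genes (red bars) under the reported setting and 9 alternatives (rows). The points of the fibrillar, basement membrane and other collagens lie right of the red bar in each row, with spike-in lowering shifting points and bar together below 0 (all genes -0.74), while FACIT falls left of the bar with median centring (0.45 against 0.55).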

How the data were processed

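Per the file headers, the authors' scanner files come from Agilent Feature Extraction 9.1.3.1. They hold the mean intensity of each spot and the median intensity of its local background, uncorrected, per the file headers. They also hold processed intensities and the log10 ratio of Cy5 over Cy3, background subtracted and dye normalised by the software, per the file headers. The deposited value table equalled that log10 ratio within 0.005.

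From the intensities, log2 ratios were computed in R 4.3.3 with limma 3.58.1 and the data.table package (version 1.17.8): normexp background correction (offset 50), loess within each array with control and outlier spots (51 and 18) at weight 0, and the mean over the spots of a probe. Printed intensities are linear, after loess and Aquantile scaling, and include the offset. On each array, 23519 probes stood well above background in Cy3 or Cy5, and limma (lmFit, then eBayes) tested their mean ratio against 0. The test was two-sided, with p-values adjusted after Benjamini-Hochberg over these probes and a threshold of 0.05. There was 1 residual degree of freedom, and eBayes added 5.20. Genes are represented by whichever tested probe was brightest (mean log2 intensity). The test was tried on simulated ratios with independent spread and no dye or centring shift. That trial does not bear on the limits that dye and centring set here. With 2 arrays the precision is limited, and probe positions are not used here.

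The members, groups and lists were chosen with earlier results of these data known. Values per array are given for collagen genes past the threshold and 1.5-fold on both arrays, and for the 2 largest of each group; those of Col4a5, Col9a3 and the second Col2a1 probe were added after their values were seen. From each list up to 4 called genes are named, with other members where a count or a defining marker needed them. Genes were named with RefSeq on GRCm38.p6. Alternatives were the centring (array medians, spike-ins), the background correction, the software ratio, the value table, the filters, the mean of a gene's probes and each array alone.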

Additional observations from a re-analysis of the deposited data

How the results depend on the processing

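With each array lowered by its spike-in mean, 6 collagen genes were higher and 14 lower (2.05% and 91.0% of all genes), and at 1.5-fold 0 were higher and 8 lower (0.684% and 60.7% of all genes). The collagen median was -0.18, the fibrillar -0.17, the basement membrane -0.11, the FACIT -0.53 and that of the other collagens -0.077. Of the partner lists, the medians turned to -0.29 (folding), -0.068 (processing), -0.47 (turnover), -0.23 (receptors) and -0.32 (basement membrane partners), and the fibroblast median to -0.23. On that scale 24 called probes changed sign: Col1a1 -0.14 (second probe), Col2a1 -0.57 and -0.040, Col3a1 -0.14, Col4a2 -0.11 and -0.21, Col4a6 -0.40 (second probe), Col5a1 -0.47 (second probe), Col5a2 -0.17, Col6a1 -0.061, Col6a2 -0.077 and -0.22, Col11a2 -0.43, Col12a1 -0.20 and -0.52, Col18a1 -0.59 and -0.57, Col19a1 -0.13, Col22a1 -0.53, Col24a1 -0.55, Col25a1 -0.36 and -0.55, and Col27a1 -0.55 and -0.45. A further 5 probes kept their sign and lost their call. These were the brightest probes of Col1a1 (0.084), Col5a1 (0.10) and Col16a1 (0.21) and the second probes of Col4a1 (0.15) and Col23a1 (0.075). By construction this setting subtracts a single number per array (0.68 and 0.84), and the ratio at which the spike-ins were added is not given in the sources used here. Centring on array medians alone moved the all-gene median to 0.55 and gave a collagen median of 1.15, with 1.22 (fibrillar), 1.36 (basement membrane), 0.45 (FACIT) and 1.26 (other), 26 genes higher (74.8% of all genes) and 19 genes 1.5-fold higher (39.3% of all genes). It turned the keratinocyte, endothelial and Schwann medians to 0.27, 0.17 and 0.41. The calls of the brightest Col24a1 probe and the second Col25a1 probe were lost with it. 

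With the software's log ratio the collagen median was 0.70, the fibrillar 0.71, the FACIT 0.60 and the other 0.72, and 1 gene, Col9a3, was 1.5-fold lower; the value table gave 0.70, 0.71, 0.60, 0.72 and 1. With an offset of 0, an alternative chosen after seeing the data, the FACIT median was 0.43 and 1 gene was 1.5-fold lower. Under these 3 settings the calls of the brightest Col2a1 probe, the second Col12a1 probe and both Col18a1 probes were lost. With the first 2 the brightest Col27a1 probe lost its call too, while the second kept it. The second Col24a1 probe became called as higher under all 3, and the second Col5a3 probe with the software's ratio. With both channels above background the collagen median was 0.60, 0 genes were lower and the endothelial median was 0.21. Without a filter 2 genes, Col9a1 and Col9a3, were lower, and the medians were 0.22 (all collagens), 0.34 (basement membrane), 0.045 (FACIT) and 0.18 (other). The call of the brightest Col18a1 probe was lost there. The mean of probes gave 0.51 for the collagens and 0.61 for the other collagens. The cause of these shifts was not tested. Without either array the collagen median was between 0.55 and 0.56 and that of the other collagens between 0.66 and 0.68. A single array has no residual degrees of freedom, so it gives no calls. Each array sets both genotypes side by side, so the tested ratios are already paired within arrays, and no other pairing was available.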

Other observations

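Under names outside the pattern used here, RefSeq assigned 4 further probes of the files to collagens. The probe named Emid2, now Col26a1, had intensities of 259 and 342 in the wild-type channel and 300 and 433 in the channel labelled Chuk-deleted. Its log2 ratio was 0.28 ± 0.09 (n = 2, adjusted p = 0.00648, limma), which is higher. The probes assigned to Col6a4, Col6a6 and a further transcript of Col11a1 were not well above background on both arrays and were not tested.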
